A study of Mus musculus with 6 samples.

Results

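Transcripts of 8 cytokines and growth factors, Il6, Osm, Lif, Il4, Il13, Csf1, Csf2 and Areg, were followed in resting splenic natural killer cells (NKC) from mice with and without the transcription factor Runx3. The 8 genes were taken by name out of 18193 genes that had a probe set of their own on the array. They were picked with the Runx3-/- minus wild type (WT) difference on these arrays already known, so that difference is described here and no test of it is read as a result. Of the 8 genes, 7 had at least 1 probe set, 11 probe sets in all, and 5 were among the 9545 genes that reached a log2 signal of 5 on at least 1 array. The platform annotation names no probe set for Areg, which is not analysed here.

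The arrays compared 3 Runx3-/- with 3 WT (Runx3+/+) samples of spleen NKC from ICR mice aged 6 weeks, to find genes that respond to Runx3. Runx3 was missing from the whole animal in the knockout, the labels name no Cre or transgene, and neither group received a stimulus. Cells were first enriched by negative selection and then sorted for DX5, an antigen (CD49b, encoded by Itga2) that NKC and some other blood cells, basophils among them, carry. Each sample is described as coming from an individual mouse, although the sex label reads male and female for every sample, so p-values measure the spread between these samples.

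Cytokines of this kind are secreted proteins that act at low concentration on cells bearing the matching receptor. Il6, Osm and Lif belong to the family whose receptors share the signal-transducing chain gp130 (Il6st), while Il4 and Il13 are the type 2 cytokines that signal through Il4ra. Csf1 and Csf2 drive the growth and survival of myeloid cells, and Areg is a ligand of the epidermal growth factor receptor. NKC are best known for interferon gamma, whereas Il4, Il13 and Il6 are classical products of basophils and mast cells.

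The cells carried the marks of the labelled type. All 13 measured NK cell marker genes of 14 listed were above log2 5, and their mean log2 level was 12.89 to 13.12 on the Runx3-/- arrays and 12.81 to 13.24 on the WT arrays. Runx3 itself read 7.76, 8.51 and 8.68 in Runx3-/- replicates 1 to 3 and 10.11, 11.56 and 10.73 in WT replicates 1 to 3, which is 5.59-fold lower in Runx3-/- (limma adjusted p = 0.0566). Where that probe set lies relative to the targeted part of the gene is not given. Itga2, the sorting antigen, was 1.33-fold higher in Runx3-/- (limma adjusted p = 0.555). The median tested gene differed by -0.129 on the log2 scale (Runx3-/- minus WT), or by -0.00719 with each array centred on its median.

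Il6, a driver of acute inflammation and of B cell maturation, was 4.36-fold higher in Runx3-/- NKC. Its single probe set (1450297_at) read log2 9.48, 9.20 and 9.03 in Runx3-/- replicates 1 to 3. In WT replicates 1 to 3 it read 7.04, 6.94 and 7.36. The groups were far apart, with 1.67 log2 units between the lowest Runx3-/- array and the highest WT array. The group means were 9.24 ± 0.23 (SD, n = 3) and 7.11 ± 0.22 (SD, n = 3), a difference of 2.12 on the log2 scale. That difference ranked 44 among 9545 tested genes, ordered from the greatest rise. Within groups Il6 was steady: its pooled SD of 0.23 exceeded that of 25.6% of the tested genes. Leaving out any 1 array kept the difference between 2.0 and 2.25.

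Osm, a relative of Il6 released by myeloid and lymphoid cells, was 2.04-fold higher in Runx3-/-. Its probe set (1438767_at) gave log2 8.79, 9.13 and 8.92 in Runx3-/- and 7.43, 7.78 and 8.55 in WT replicates 1 to 3. The WT arrays were spread more widely than the Runx3-/- arrays, and WT replicate 3 came within 0.24 of the lowest Runx3-/- array. The means were 8.95 ± 0.17 and 7.92 ± 0.58 (SD, n = 3 each), 1.03 apart, and the difference was 0.78 to 1.34 when 1 array was left out. Lif, the family member known for keeping embryonic stem cells undifferentiated, was not above log2 5 on any array. Its representative probe set (1421207_at) ranged from 2.18 to 2.37 in Runx3-/- and from 2.21 to 2.27 in WT, and the other (1450160_at) stayed between 2.03 and 2.10. Thus of the gp130 cytokines chosen, Il6 and Osm gave a signal and no direction can be given for Lif.

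Il4, the cytokine that switches B cells to IgE and polarises helper T cells, lay at the edge of detection. Its probe set (1449864_at) read log2 5.67, 4.79 and 4.66 in Runx3-/- and 3.45, 4.47 and 4.52 in WT. The 3 Runx3-/- arrays were above the 3 WT arrays, by 0.14 at the closest, yet only Runx3-/- replicate 1 reached 5. Il4 therefore entered the tested genes through 1 array of the group in which it was high. The means of 5.04 ± 0.54 and 4.15 ± 0.60 (SD, n = 3 each) differed by 0.89, and no fold is given. That difference was 0.55 without WT replicate 1, 0.58 without Runx3-/- replicate 1, and 0.22 when values under 5 were raised to 5. Il13, the type 2 cytokine of mucus and helminth responses, was flat and below 5 on all 6 arrays, from 2.54 to 2.64 in Runx3-/- and from 2.57 to 2.58 in WT (1420802_at).

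Csf1, the growth factor of macrophages, was 2.37-fold higher in Runx3-/-. Its representative probe set, that of highest mean (1460220_a_at), read log2 10.77, 9.65 and 9.92 in Runx3-/- and 8.63, 8.71 and 9.26 in WT. A second probe set (1448914_a_at) gave 9.04, 7.47 and 7.73 in Runx3-/- and 6.66, 5.93 and 7.35 in WT. On both, Runx3-/- replicate 1 was the highest array and WT replicate 3 the highest WT array, and the groups did not overlap, although the gap was 0.39 on the first probe set and 0.12 on the second. The differences of means were 1.25 and 1.43 on the log2 scale, the second being 2.69-fold. Means and SD on the first probe set were 10.12 ± 0.59 in Runx3-/- and 8.87 ± 0.34 in WT (n = 3 each). Without Runx3-/- replicate 1 the difference on the first probe set was 0.92. The remaining probe sets (1425154_a_at and 1425155_x_at) were under 5 throughout, between 2.85 and 4.62, and on both the groups overlapped.

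Csf2, the granulocyte and macrophage growth factor that activated NKC can secrete, went the other way. Its probe set (1427429_at) read log2 6.22, 5.82 and 6.18 in Runx3-/- and 6.07, 7.29 and 7.18 in WT. WT replicate 1 fell among the Runx3-/- arrays, so the groups overlapped. The means of 6.08 ± 0.22 and 6.85 ± 0.67 (SD, n = 3 each) put Csf2 1.71-fold lower in Runx3-/-, and the log2 difference of -0.77 became -1.16 without WT replicate 1 and -0.55 without WT replicate 2.

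**Figure D1:**
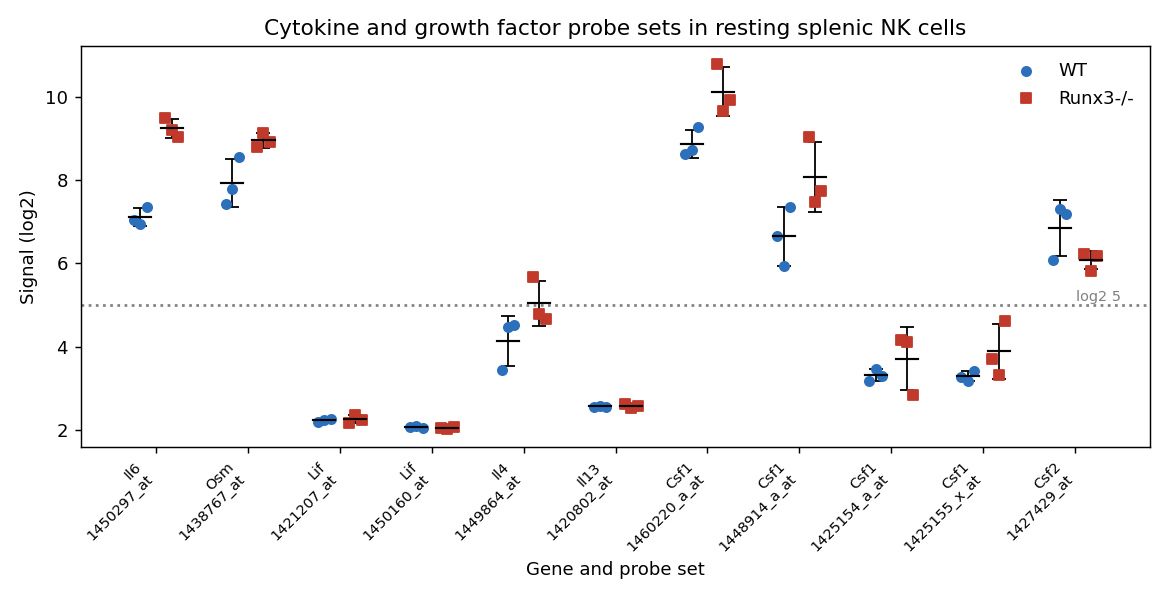
Log2 signal (vertical axis) of the 11 probe sets of the chosen cytokine and growth factor genes (horizontal axis) on each of 3 WT (blue circles) and 3 Runx3-/- (red squares) arrays. Horizontal bars are group means, whiskers are SD and the dotted line is log2 5. The Il6 groups stand 1.67 apart, Osm and both bright Csf1 probe sets are separated by less than 0.4, and Lif and Il13 lie under 5 on every array.

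Set among all genes, 3 of the 5 tested cytokines, Il6, Osm and Csf1, were higher at the thresholds of the study, an unadjusted p under 0.05 with at least 1.5-fold, which 4.89% of tested genes passed as higher. At a Benjamini-Hochberg adjusted p under 0.05, which 0.283% of tested genes passed as higher, 0.325% as lower and 0.608% in either direction, Il6 was the one chosen gene listed. That list of genes is not stable: limma called 0 genes in 5 of the 6 fits that left out 1 array, where 1014 to 1561 genes had an unadjusted p under 0.05, and 0 with the replicate number as a block, where 1390 did. Non-overlapping groups with Runx3-/- above WT were seen for Il6, Osm, Csf1 and Il4, and for 5.98% of tested genes. These counts come from the contrast on which the genes were chosen, so nothing is read from them. By rise, Csf1 ranked 252, Osm 386 and Csf2 8957 of 9545, and Il4, under 5 on 5 of the 6 arrays, is not ranked.

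**Figure D2:**
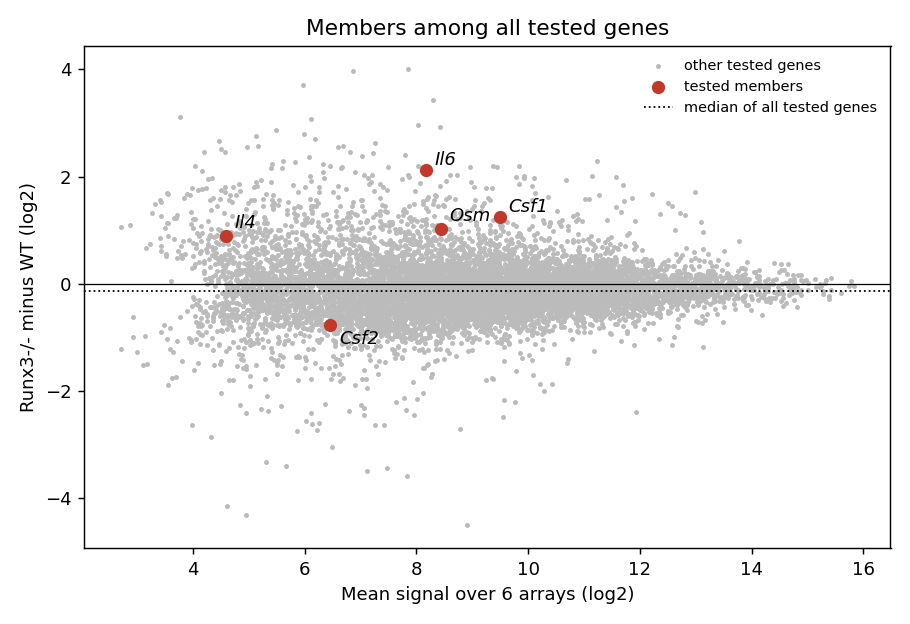
Mean log2 signal over the 6 arrays (horizontal axis) against the Runx3-/- minus WT difference in log2 (vertical axis) for 9545 tested genes (grey), with the 5 tested cytokine and growth factor genes in red and the median gene as a dotted line. Il6 is near the upper edge at its signal, at 2.12, while Il4 is close to the dim end, where spread is wide, and Csf2 lies at -0.77.

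Promoter letters of the chosen genes were read from RefSeq promoters of assembly GRCm38.p6 to show what the region next to each start holds. The window ran from 250 bases before to 50 bases after a start, and 7 of the 8 genes had an entry, Osm being the one without. The 250 bases before the start of the genes that differed most, Il6 (chr5:30012864-30013113, plus strand) and Csf1 (chr3:107760470-107760719, minus strand), are printed with those of the type 2 pair, Il4 (chr11:53618666-53618915, minus strand) and Il13 (chr11:53634703-53634952, minus strand), each 5′ to 3′ on the strand of the gene. Capitals mark every match to a searched motif on either strand that lies whole within the printed bases.
Il6: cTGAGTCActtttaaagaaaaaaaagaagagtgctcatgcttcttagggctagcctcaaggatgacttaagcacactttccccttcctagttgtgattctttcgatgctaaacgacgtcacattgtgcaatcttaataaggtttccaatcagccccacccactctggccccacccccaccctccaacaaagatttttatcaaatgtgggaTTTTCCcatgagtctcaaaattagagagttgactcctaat
Csf1: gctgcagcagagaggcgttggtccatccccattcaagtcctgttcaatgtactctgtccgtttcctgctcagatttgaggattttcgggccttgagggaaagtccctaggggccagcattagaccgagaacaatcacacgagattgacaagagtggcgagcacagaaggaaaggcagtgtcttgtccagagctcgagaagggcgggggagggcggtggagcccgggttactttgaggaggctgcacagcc
Il4: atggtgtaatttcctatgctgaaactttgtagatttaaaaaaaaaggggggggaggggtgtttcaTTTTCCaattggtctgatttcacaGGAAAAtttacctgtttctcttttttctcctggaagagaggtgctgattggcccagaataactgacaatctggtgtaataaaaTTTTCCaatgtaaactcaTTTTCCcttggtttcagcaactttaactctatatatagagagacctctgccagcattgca
Il13: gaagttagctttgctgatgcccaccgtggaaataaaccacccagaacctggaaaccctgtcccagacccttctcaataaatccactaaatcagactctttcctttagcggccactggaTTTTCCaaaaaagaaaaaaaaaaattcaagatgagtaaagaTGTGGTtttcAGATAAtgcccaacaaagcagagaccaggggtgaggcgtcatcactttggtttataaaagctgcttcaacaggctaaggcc

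Both strands were searched for motifs of transcription factors known to act on cytokine genes. The RUNX motif was taken as TGTGGT in its usual form, with TGTGGC as an accepted variant, TGCGGT as another variant, and TGCGGC as a further one. The AP-1 motif was TGANTCA, that of GATA factors was AGATAA and the core for NFAT was GGAAAA. For C/EBP factors TTGCNNCAA was searched, which is a base longer than their usual palindromic site and cannot match it. Nothing is therefore read from its absence in these genes. The matches found in these genes did not overlap each other. The Il6 window held an AP-1 match at -249, counted in bases from the start, and an NFAT match at -40, and no RUNX letters. Those NFAT letters lie in the run gggaTTTTCC, which also has the form of a site of NF-kappaB factors, a motif not searched here. The Il4 window printed, that of the outermost of its starts, held NFAT matches at -185, -161, -78 and -60. The window of its other start held none of the letters searched. In Il13 a RUNX match at -91 lay next to a GATA match at -81, with an NFAT match at -132. A further RUNX match spanned the start itself, from -3, in both Il13 and Csf1, and is therefore not in the printed bases. Among the windows not printed, Lif had RUNX at -102 and AP-1 at -228, Csf2 had GATA at -247 and Areg had RUNX at -11. How common the letters were differed: of 32851 promoter windows, 45.2% held RUNX letters, 7.81% AP-1, 11.2% GATA, 23.4% NFAT and 2.08% TTGCNNCAA. A match is a run of letters and not a measured binding site.

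Receptors for these cytokines were read from the same fit. Of the 13 receptor genes listed, 12 had a probe set, 7 were tested, and 2 rose and 1 fell at the thresholds of the study, where 4.89% of tested genes rose and 8.86% fell. The risers were Csf2rb, the signalling chain shared by receptors for Csf2, Il3 and Il5, and its near-identical paralog Csf2rb2, which pairs with the Il3 receptor. Csf2rb read 14.05, 12.95 and 12.90 in Runx3-/- and 11.98, 11.26 and 12.33 in WT, 2.73-fold higher (limma adjusted p = 0.161). Csf2rb2 read 12.62, 11.84 and 11.82 against 10.29, 10.14 and 10.88, 3.16-fold higher (limma adjusted p = 0.0707). Neither overlapped between groups, and because their sequences are so alike, signal could be shared between their probe sets. Both also stand on the list of basophil and mast cell markers described further on.

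Il4ra, the chain through which both Il4 and Il13 signal, was the receptor that fell. It read 8.91, 8.43 and 8.66 in Runx3-/- and 9.25, 9.21 and 9.96 in WT, 1.75-fold lower (limma adjusted p = 0.225), with every Runx3-/- array below every WT array. It no longer met the thresholds without Runx3-/- replicate 2 (log2 difference -0.69) or WT replicate 3 (-0.56), nor as the mean of its probe sets (-0.49). The gp130 chain Il6st was present at a mean of 6.86 in Runx3-/- and 6.63 in WT and did not pass, nor did Csf2ra (5.96 and 6.15) or Egfr (6.15 and 6.14). Csf1r, the receptor for Csf1, read 12.19, 10.02 and 5.85 in Runx3-/- and 9.56, 9.32 and 8.79 in WT, so that the Runx3-/- arrays lay on both sides of the WT arrays. The receptors Il6ra, Il13ra1, Il13ra2, Osmr and Lifr were under 5 on every array, and Il2rg had no named probe set. The ligand-binding chains for Il6, Osm and Lif were therefore all under log2 5 in these preparations.

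Across 7 lists of pathway genes (149 genes without the cytokines themselves), 99 were tested and 20 of them, 20.2%, met the thresholds of the study, 11 higher and 9 lower (14 and 6 with each array centred on its median), against 13.8% of all tested genes. At an adjusted p under 0.05, limma called 0 of them, while 20 had an unadjusted p under 0.05. The same sign held for all 20 in every alternative fit that gave a value (Nfatc2 and Tlr4 had none in the fit on the mean of the probe sets), and Csf2rb, Csf2rb2, Cish, Ptpn6, Relb, Gata2, Fcer1a and Ms4a2 met the thresholds in every one. The count dropped to 12 when Runx3-/- replicate 2 was left out. Among the 11 higher, Csf2rb, Csf2rb2, Gata2, Fcer1a and Ms4a2 also stand on the basophil and mast cell list described further on. The counts of the pathway lists and of that list therefore share these genes.

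Signalling genes downstream of these receptors went both ways. Among 17 tested JAK-STAT genes 3 rose and 1 fell, where 4.89% and 8.86% of all tested genes did, and the list median was -0.04 beside -0.13 for all tested genes. Cish, a STAT5-induced brake on cytokine receptors, was 2.21-fold higher (limma adjusted p = 0.126), and Ptpn6, the phosphatase SHP-1 that dampens receptor signalling, was 2.03-fold lower (0.101). Socs2, another inducible brake, was 1.76-fold higher (0.263) on its representative probe set but 0.22 higher in log2 on another bright one. Pim1, a kinase induced by STATs, was 1.72-fold higher (0.294). Without Runx3-/- replicate 2 or without WT replicate 1 neither Socs2 (log2 difference 0.55 and 0.60) nor Pim1 (0.57 and 0.61) passed, and Pim1 also missed without Runx3-/- replicate 1 (0.72) or WT replicate 2 (0.75).

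Related ligands were largely silent. Of 26 with a probe set, 19 were under 5 on every array, Il3, Il5, Il9, Il10 and Tnf among them. Of all tested genes 4.89% rose and 8.86% fell, and of the 7 ligands tested, 0 rose and 1 fell. That one was Tgfb1, an immunosuppressive cytokine, at 1.98-fold lower (limma adjusted p = 0.260). It passed in the leave-one-out fits without Runx3-/- replicate 1 or WT replicate 2 alone, and its log2 difference in the other 4 was -0.97 to -0.70. Ifng, the typical NKC cytokine, averaged log2 10.15 in Runx3-/- and 9.78 in WT and did not pass. Its groups did not overlap, at 10.13 to 10.18 in Runx3-/- and 9.62 to 9.96 in WT, as for 5.98% of tested genes with Runx3-/- higher. Of the 13 EGF family ligands and shedding genes, 10 were under 5, and the 3 tested, Adam17, Adam10 and Rhbdf2, did not pass (each unadjusted p over 0.05).

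Of 34 tested factors that transcribe cytokine genes, 4 were higher and 4 lower, with a median of -0.02. Of all tested genes 4.89% were higher and 8.86% lower, the shares to set beside this and the next 2 lists. Gata2, needed for basophil and mast cell identity, was 2.98-fold higher (limma adjusted p = 0.155), and Rora, a factor of innate lymphoid cells, was 2.32-fold higher (0.228) with a smaller rise of 0.60 in log2 on one other bright probe set. Relb, of the NF-kappaB family, was 2.02-fold lower (0.126), and Eomes, an NK cell lineage factor, was 1.63-fold lower (0.185). Of 15 tested genes of AU-rich mRNA decay and stability, which set the half-life of cytokine transcripts, 1 passed, Arid5a, a protein that stabilises Il6 mRNA, at 1.93-fold lower (0.212). Among 16 tested receptors that trigger innate cytokine release, 2 rose, Fcer1a and Ms4a2 of the IgE receptor, and 1 fell, Tlr4, the endotoxin receptor, at 1.67-fold lower (0.263) with no difference (0.00 in log2) on its other bright probe set. The median of that list was 0.05, and that of the decay list -0.16. Of the genes named here, Rora no longer passed without Runx3-/- replicate 1 (log2 difference 1.16), Runx3-/- replicate 2 (1.10) or WT replicate 3 (0.80). The same held for Arid5a without Runx3-/- replicate 2 (-0.82), Runx3-/- replicate 3 (-0.83) or WT replicate 3 (-0.77). Tlr4 missed without Runx3-/- replicate 3 (-0.52), WT replicate 1 (-0.68) or WT replicate 2 (-0.62), and both Tlr4 (-0.62) and Eomes (-0.58) missed with each array centred on its median.

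**Figure D3:**
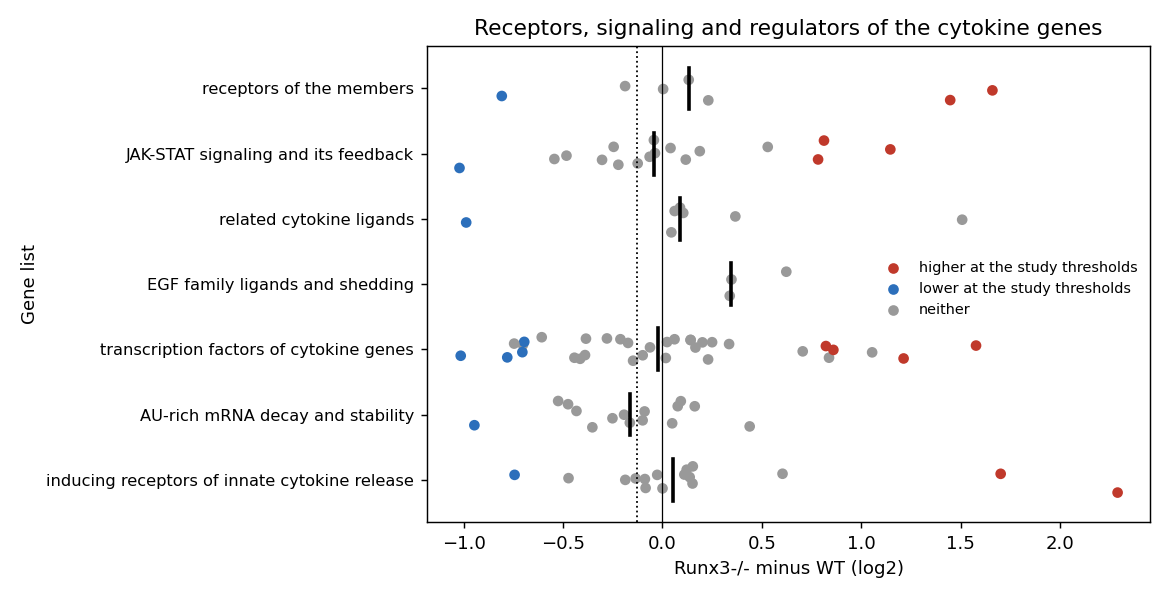
Runx3-/- minus WT difference in log2 (horizontal axis) for the 99 tested genes of 7 pathway lists (rows), each point 1 gene, coloured by whether it met the thresholds of the study, with list medians as black bars and the median of all tested genes as a dotted line. List medians lie between -0.16 and 0.35, and Ms4a2 is the point farthest to the right, at 2.29.

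The basophil and mast cell list was the marker list with the most genes called. Of its 27 genes, 25 had a probe set, 19 were tested, 13 were higher and 0 lower at the thresholds of the study, and Hdc and Cyp11a1 passed at an adjusted p under 0.05. The median difference of the tested markers was 1.61 on the log2 scale. Of all tested genes, 4.89% were higher and 8.86% lower at the thresholds of the study, and 0.608% passed at the adjusted p in either direction. The mean log2 level over the 19 was 11.35, 10.40 and 10.29 in Runx3-/- and 9.45, 8.94 and 9.55 in WT, and the log2 of their summed signal ran from 15.85 to 16.54 and from 14.52 to 15.18. As with Il6, Csf1 and Il4, Runx3-/- replicate 1 was the highest array. It was also the highest for the mean levels of the macrophage and B cell markers given below. Osm was highest on Runx3-/- replicate 2 and Csf2 on WT replicate 2. The 6 tested markers that did not pass were Gata1, Cd200r3, Kit, Cma1, Slc18a2 and Itgb7, each with overlapping groups, and Cd200r3 differed by -0.36. The mast cell protease genes Mcpt4, Tpsb2 and Tpsab1 were under 5 everywhere, as were Il3ra, Ms4a3 and Ccr3, while Cma1, the mast cell chymase gene, read 13.06 to 13.50 in Runx3-/- and 11.90 to 13.60 in WT.

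Of the basophil genes picked from that list for description, with earlier results known, Prss34 had no named probe set and the other 5 were among the 13 that rose. The protease gene Mcpt8 was 3.04-fold higher (limma adjusted p = 0.0959), Cpa3, a granule carboxypeptidase, 4.54-fold (0.178), and Hdc, which makes histamine, 3.97-fold (0.0373). Of the IgE receptor chains, Fcer1a was 3.25-fold higher (0.133) and Ms4a2 4.89-fold (0.0672), the latter with 1.43 in log2 on another probe set. In such bulk samples, fewer or more cells of a type and less or more RNA per cell cannot be told apart. Their part in the cytokine levels was not tested.

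Other marker lists had fewer genes called, and their counts stand beside 4.89% of all tested genes higher and 8.86% lower. Their median log2 differences were 0.97 for B cell, 0.92 for macrophage and monocyte and 0.72 for innate lymphoid type 2 markers. For neutrophil, NK cell and T cell markers they were 0.10, 0.0 and -0.14, beside -0.13 for all tested genes. Of macrophage and monocyte markers 3 of 14 rose, and their mean level was 8.98, 7.49 and 5.24 in Runx3-/- against 6.77, 6.31 and 6.27 in WT, so the 3 Runx3-/- samples lay on both sides of the WT samples. Of B cell markers 4 of 11 rose, with mean levels of 6.71 to 7.74 in Runx3-/- and 5.66 to 6.79 in WT. Each of the 11 had a higher mean in Runx3-/-. Of neutrophil markers 1 of 9 rose and 1 fell, of innate lymphoid type 2 markers 1 of 6 rose, of T cell markers 0 of 8 passed either way, and of NK cell markers 0 of 13 rose and 1, Eomes, fell. The part of these cells was likewise not tested.

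Each cytokine was next set against the basophil and mast cell markers on its own array, by subtracting the mean log2 level of the 19 markers. For Il6 this left -1.87, -1.20 and -1.26 in Runx3-/- and -2.41, -2.00 and -2.19 in WT. The groups still did not overlap, with Runx3-/- higher by 0.76. For Csf1 the remainder was -0.58, -0.75 and -0.36 against -0.82, -0.23 and -0.29, which overlapped and differed by -0.12. Osm differed by -0.34 and Csf2 by -2.14 on this relative scale, and Il4 is left out because it was under 5 on 5 of the 6 arrays. Against the mean of Mcpt8, Fcer1a, Ms4a2, Cpa3 and Hdc, a choice made after seeing the data, the Il6 difference was 0.17 with overlapping groups, and those of Csf1 and Osm were -0.71 and -0.93. Both the cytokines and the markers are known to move on this contrast, so these remainders are a description and say nothing of where the cytokine signal came from.

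**Figure D4:**
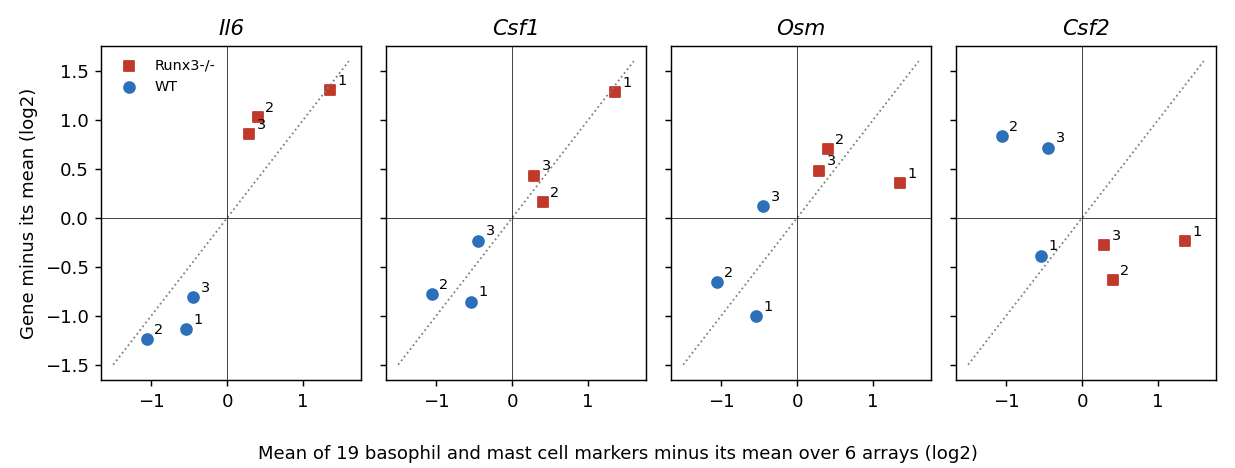
For 4 cytokine genes, the log2 signal on each array minus the mean of the gene over the 6 arrays (vertical axis) against the mean log2 level of 19 basophil and mast cell markers centred in the same way (horizontal axis). Red squares are Runx3-/-, blue circles are WT, numbers are replicates and the dotted line marks equal change. Csf1 arrays lie near the line, with Runx3-/- replicate 1 highest on both axes, whereas the WT arrays with the highest Csf2 (replicates 2 and 3) lie to the left.

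The genes whose values ran most like each cytokine were found by the root mean square (RMS) difference of mean-centred log2 values over the 6 arrays. Nearest to Il6 were Htr1b, a serotonin receptor (RMS 0.17), the histamine enzyme gene Hdc (0.19) and Ramp1, a partner of receptors for calcitonin gene-related peptide (0.20). Htr1b read 8.83, 8.62 and 8.73 in Runx3-/- and 6.90, 6.49 and 6.90 in WT, a split as clean as that of Il6. Nearest to Csf1 were Siglecf, a sialic acid-binding receptor of eosinophils (0.12), Irak3, a brake on Toll-like receptor signalling (0.13), and the metalloprotease gene Adam8 (0.14). Nearest to Osm were the linker histone gene H1f2 (0.13), Spred2, an inhibitor of Ras-ERK signalling (0.15), and Rccd1 (0.21). Csf2 had the closest of all, Wdr4, a subunit of a tRNA methyltransferase (0.07), followed by Nefh, a neurofilament gene (0.12), and Get1 (0.14). These likenesses are over 6 arrays in 2 groups and describe the shape and the size of the differences between arrays. They therefore include the Runx3-/- minus WT difference, on which the cytokines were chosen.

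Genes beside the cytokines on the chromosome were also read. Il4, Il13 and Csf2 lie in one stretch of chromosome 11, and of the 10 other genes between or next to them 3 were tested and 0 met the thresholds, with no unadjusted p under 0.05. These were Rad50, a DNA repair gene (limma adjusted p = 0.649), Irf1, an interferon-response factor (0.906), and Slc22a5, a carnitine transporter (0.461). The cytokine genes Il5 and Il3 in that stretch were under 5 on all arrays, as Il13 was. Osm and Lif are neighbours elsewhere on chromosome 11, and there Castor1, an arginine sensor of the mTORC1 pathway that adjoins Osm, read 8.76, 8.76 and 8.74 in Runx3-/- and 8.14, 7.76 and 7.94 in WT. It was 1.75-fold higher with no overlap (limma adjusted p = 0.133), beside a 2.04-fold difference for Osm. Hormad2, on the far side of Lif, was under 5, as were Ereg and Btc beside Areg on chromosome 5.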

How the data were processed

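RNA from each of the 6 sorted NKC samples was read on its own Affymetrix mouse array. The authors processed the arrays in Partek with GCRMA (no version is named in the notes of the submitters) and deposited log2 values for 45101 probe sets. This method subtracts a background set by base content and brings the probe signals of the arrays to a common distribution. A change in total RNA per cell is therefore not seen, and differences among dim probe sets mostly follow the background model. The deposited arrays still differed a little: the median of the tested genes was 8.845 to 8.971 in Runx3-/- and 8.975 to 9.037 in WT. The labels and the methods name different labelling kits, and depth has no counterpart on arrays, where the number of arrays limits precision. No array batch is given.

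Probe sets were named by the platform annotation: 34945 had 1 gene symbol, 932 had several, and 64 were controls. A gene was represented by its probe set of highest mean, and 9545 of 18193 genes at log2 5 or more on at least 1 array were tested. This level stands in for the background of the study, which is not given. Runx3-/- and WT were compared with limma 3.58.1 (lmFit and eBayes) in R 4.3.3, with Benjamini-Hochberg adjustment over all tested genes and, separately, the thresholds of the study. The code was tested on simulated data. Array pairs correlated at 0.925 to 0.974, shared at most 0.0111% identical values, and had 17074 to 17771 probe sets at log2 5 or more.

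The genes described, the pathway and marker lists, the motifs and the tests were chosen with earlier results of these data known. Named were the chosen genes, Runx3, Itga2, all their receptors, up to 4 genes of lowest p at the study thresholds in each other pathway list, the 3 genes most like each cytokine at 5 or more on at least 3 arrays, chromosomal neighbours, and 6 basophil markers. A few list genes named only as under 5, as not passing, as called in a marker list or as holding in every fit fall outside that rule and were chosen after their values were seen. Alternatives covered scaling, filter, floor, probe set choice, moderation, a replicate block and leaving out each array. Same-numbered replicates were checked and did not deviate together.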

Additional observations from a re-analysis of the deposited data

How the results depend on the processing

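The differences of Il6, Osm and Csf1 kept their sign under all alternatives run, as did that of Csf2, while those of Lif and Il13 stayed near 0 and have no stable sign. Csf1 ranged from 0.40, on a dim probe set, to 1.48, and Il4 came to 0.22 with values under 5 raised to 5. Differences relative to basophil markers shifted with 5 markers in place of 19, a choice made after seeing the data. That of Il6 went from 0.76, without overlap, to 0.17 with overlapping groups. Csf1 went from -0.12 to -0.71, Osm from -0.34 to -0.93 and Csf2 from -2.14 to -2.73.

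Over all genes, 58 passed at an adjusted p under 0.05 on the deposited values. This count was 1 with no filter (2026 at an unadjusted p under 0.05), 37 with the floor, 14 with every probe set a feature and 12 with the mean of the probe sets of a gene. It was 0 to 128 when 1 array was left out, being 128 without WT replicate 1 and 0 in the 5 other limma fits, where 1014 to 1561 genes had an unadjusted p under 0.05. The thresholds of the study called 1313 genes, 467 higher and 846 lower, which became 627 higher and 498 lower with each array centred on its median, 2123 with every probe set a feature, and 971 to 1891 when 1 array was left out. The 20 pathway genes at these thresholds became 12 (without Runx3-/- replicate 2) to 24 when 1 array was left out, and 26 with every probe set a feature. No called result changed sign.

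Replicate numbers are shared by both groups, but the deviations of same-numbered arrays correlated at 0.0652, -0.186 and 0.154, so the numbers do not pair the samples. With the replicate number as a block limma called 0 genes at an adjusted p under 0.05 (1390 at an unadjusted p under 0.05), 1341 at the thresholds of the study and 18 pathway genes. With 3 arrays per group, and no depth on an array, signal near log2 5 limits what can be read of Il4.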
